A study of Sus scrofa with 18 samples.

Results

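The genes described here are targets of the transcription factor p53 and regulators of apoptosis in cultured pig (Sus scrofa) kidney cells. They were chosen by name, and 7 of the 9 listed genes were found by symbol among the 15240 genes of the deposited tables. These were CDKN1A, MDM2, GADD45A, SESN1, FAS, BBC3 and BCL2L1, while BAX and MCL1 were not analysed here. Of the 15240 genes, 3313 carried no symbol, so a gene not found by symbol may still be present. RNA was sequenced from 18 libraries of purchased primary kidney endothelial cells, acquired at passage 3 and frozen at passage 5. By their labels, 5 libraries were cell-cell interaction, 5 ST8Sia6 plasmid (written St8i6a in the labels), 5 GFP control, 2 wild type and 1 negative (KEC plus all cells). The gene of the ST8Sia6 plasmid makes a sialyltransferase, which extends sialic acid chains on glycans. The GFP plasmid carries a green fluorescent protein as a control. Both were delivered with the lipid reagent Lipofectamine LTX, which the protocol text attached to every library describes, and experiments followed 24 hours later. The protocol also describes co-culture of transfected cells with blood mononuclear cells of 4 individuals. The text attached to every library also states 4 experiments, fewer than the 5 libraries of the larger labels. Libraries of 1 label may thus share an experiment. The plasmid of the cell-cell interaction libraries, the handling of wild type and which libraries shared an experiment are not stated. The p-values therefore measure only the spread between these libraries, which may be technical.

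In unstressed cells p53 is kept scarce by MDM2, a ubiquitin ligase that marks it for degradation and is itself a p53 target, which closes a feedback loop. DNA damage and other stresses release p53, which then raises genes that stop the cell cycle (CDKN1A, GADD45A), restrain growth signalling (SESN1) or promote death (FAS, BBC3). The BCL2 family decides whether mitochondria release cytochrome c: BCL2L1 encodes the protective BCL-XL, and BBC3 encodes PUMA, a BH3-only protein that binds and blocks such protectors. A change in messenger RNA level does not by itself measure p53 activity or cell death.

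The libraries held between 14867035 and 33301008 counts. Transcripts of the mitochondrial genome took 13.8% to 25.4% of counts in 6 libraries (cell-cell interaction 1 to 4 and ST8Sia6 plasmid 4 and 5) and 1.22% to 4.32% in the other 12. Those 6 were also the shallowest, at no more than 21429389 counts. ST8SIA6, the gene the plasmid was meant to supply, had 59, 0, 3, 0 and 61 counts in the libraries labelled ST8Sia6 plasmid and 0, 27, 0, 5 and 1 in those labelled GFP control, so the 2 labels overlapped and no difference was detectable (exact permutation test on log2(CPM + 0.5), two-sided, p = 0.365). Cell-cell interaction 2 had 439 counts. Reads were counted on the pig build, so an insert unlike the pig gene could go uncounted, and these counts do not measure delivery. Across the 4 deposited comparisons, a linear fit of the authors' fold changes on the library levels weighed ST8Sia6 plasmid 4 and 5 with the GFP cells of the cell-cell interaction, GFP control 5 with the ST8Sia6 plasmid cells, and wild type 1 with the ST8Sia6 cells of the interaction. Every direction by label below is therefore a direction between libraries so labelled. Results for the members are also given without those 4 libraries, called the doubted libraries. The ST8SIA6 test above includes 3 of them and was not run without them. The same fit weighed cell-cell interaction 1 and 2 with the GFP cells of the interaction, and 3 to 5 with the ST8Sia6 cells. By these weights the cell-cell interaction label held cells of both plasmids. Of 10 endothelial markers, 6 had a row, and their summed level was 2.29 to 17.6 CPM (CPM is the count scaled by library size and TMM factor), with PECAM1 at 0.879 to 4.86 CPM, ERG at 0 counts in 6 libraries and EMCN at 0 in 5. The 8 kidney epithelial markers with a row summed to 928 to 2465 CPM, with KRT8 at 576 to 1522 CPM and PAX2 at 102 to 187 CPM, while EPCAM, CDH16, CLDN8 and TRPV6 had medians of 1.36, 5.15, 9.96 and 0.201 CPM. The 6 of 9 mesenchymal markers with a row summed to more, 7718 to 38420 CPM, with COL1A1 and COL1A2 at medians of 6143 and 7898 CPM. The endothelial name in the labels thus went with low levels of the 6 endothelial markers found, beside high levels of collagen genes and of some epithelial genes. CDH5, VWF, KDR and TEK were not found by symbol, which does not show that they were not expressed.

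CDKN1A, which encodes p21, an inhibitor of cyclin-dependent kinases, was the most abundant of the 7 genes and had the widest range over libraries. Per length, its level had a median of 169 RPKM over the 18 libraries (CPM per kilobase of the deposited gene length). BCL2L1 followed at 49.98 RPKM, then MDM2 at 17.6, GADD45A at 15.8, FAS at 5.29, BBC3 at 4.93 and SESN1 at 2.54 RPKM. FAS and BBC3 were not separable in this order, since their ranges over libraries were 2.28 to 7.36 and 3.32 to 6.68 RPKM, and MDM2 (11.7 to 26.1 RPKM) and GADD45A (10.8 to 24.8 RPKM) were likewise mixed. The highest library exceeded the lowest 3.84-fold for CDKN1A, 3.22-fold for FAS, 2.47-fold for BCL2L1 and SESN1, 2.29-fold for GADD45A, 2.23-fold for MDM2 and 2.01-fold for BBC3. Every member passed the filter on low counts in all 4 comparisons by label. The smallest member count was 117, for SESN1, so counting error was small beside the spread between libraries.

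**Figure D1:**
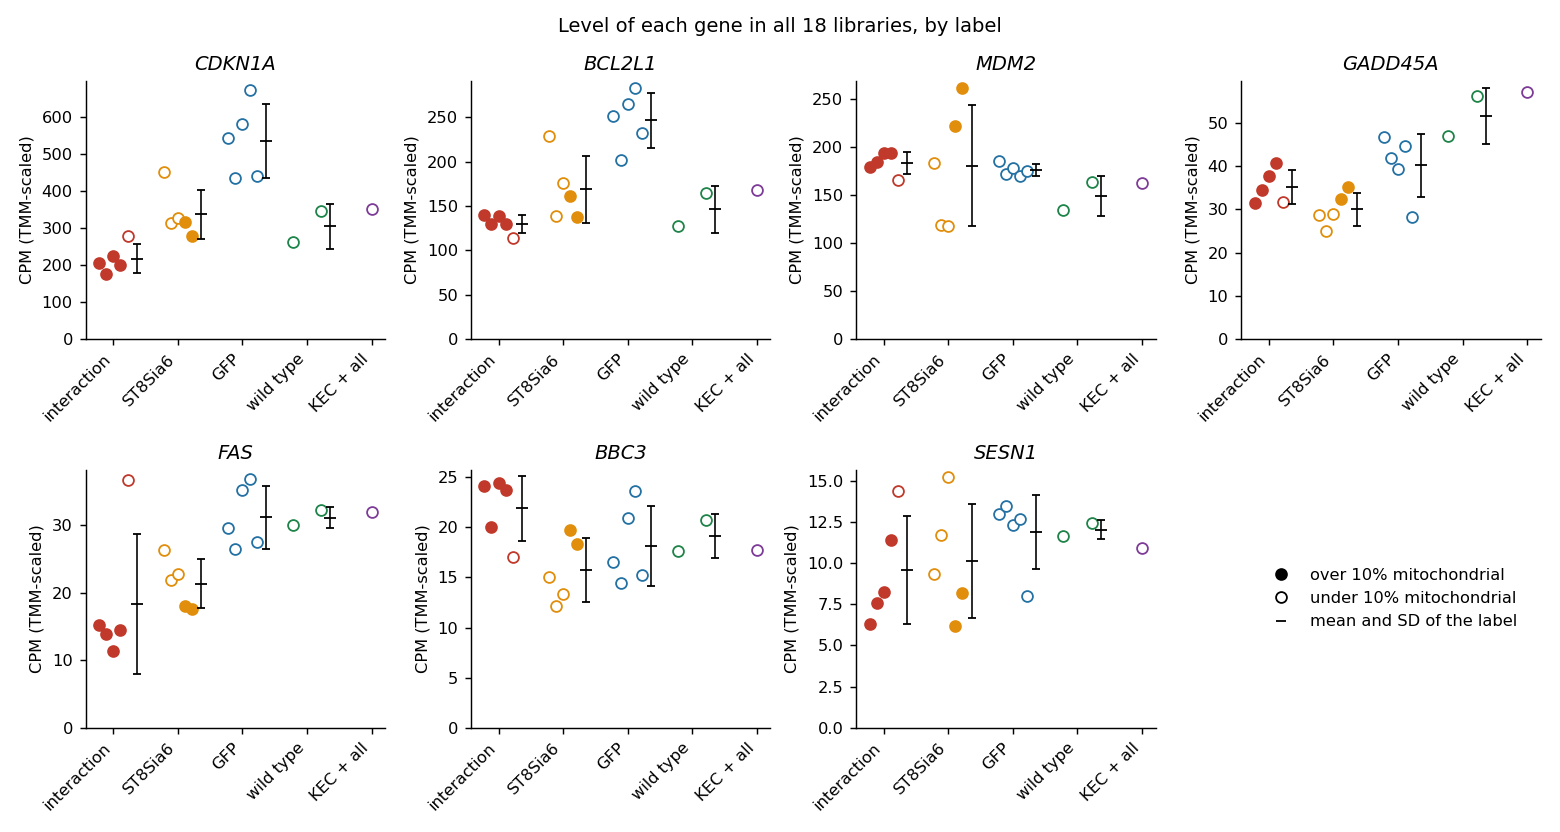
Level of each of the 7 genes in CPM (linear axis from 0) in all 18 libraries, grouped by label; 1 point is 1 library, filled where over 10% of its counts were mitochondrial, and bars give the mean and SD of a label. CDKN1A and BCL2L1 of cell-cell interaction lie wholly below GFP control, while FAS of cell-cell interaction 5 (36.7 CPM) stands apart from the other 4 libraries of its label (11.4 to 15.2 CPM).

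Cells labelled cell-cell interaction had less CDKN1A and BCL2L1 messenger RNA than cells labelled GFP control, and the other 5 genes did not pass the test. The question here, going by the label names, is how contact between cells alters the transfected cells. By the weights above, however, the interaction label held cells of both plasmids, while the reference was GFP control. Contact and plasmid can thus not be told apart in this comparison. CDKN1A (ENSSSCG00000001565.4; build susScr11, chromosome 7, 32359455 to 32363761, plus strand) had 205, 175, 224, 201 and 279.9 CPM in cell-cell interaction 1 to 5, against 544, 436, 582, 674 and 442 CPM in GFP control 1 to 5. The labels did not overlap, and the highest interaction library, number 5, was the one with few mitochondrial counts. The means were 217 ± 39.1 and 536 ± 100.1 CPM (SD, n = 5 each), a log2 fold change of -1.27 ± 0.17 (SE; edgeR quasi-likelihood test, Benjamini-Hochberg adjusted p = 0.000504). BCL2L1 (ENSSSCG00000035357.2; chromosome 17, 35366141 to 35415359, minus strand) had 139.5, 129, 138, 129 and 114 CPM in cell-cell interaction, against 251, 202, 265, 283 and 232 CPM in GFP control. These labels did not overlap either, and here interaction library 5 was the lowest. Its log2 fold change was -0.89 ± 0.12 (edgeR adjusted p = 0.000517), with means of 130.1 ± 10.1 and 247 ± 31.1 CPM (SD, n = 5 each). BCL2L1 also yields the shorter, death-promoting BCL-XS by splicing, which gene-level counts cannot tell from BCL-XL. In a bulk library, fewer cells of a type and less RNA per cell cannot be told apart.

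FAS (ENSSSCG00000010448.5; chromosome 14, 100927089 to 100956716, plus strand), the death receptor bound by FAS ligand on lymphocytes, had 15.2, 13.8, 11.4, 14.5 and 36.7 CPM in cell-cell interaction 1 to 5. In GFP control 1 to 5 it had 29.6, 26.5, 35.2, 36.7 and 27.5 CPM. Interaction libraries 1 to 4 lay below every GFP control library, while library 5 was level with the highest of them. FAS did not pass (log2 fold change -0.73 ± 0.29; edgeR adjusted p = 0.0632), but did without cell-cell interaction 5 (-1.15 ± 0.14; edgeR adjusted p = 0.000161, beside 50.5% of genes). DESeq2 and limma-voom passed it with all libraries (adjusted p = 0.0388 and 0.033), as did 1 fit over all labels (edgeR adjusted p = 0.0266). DESeq2 passed 45.4% of genes, limma-voom 5487 of 13951 genes and the fit over all labels 41.9%. Over the whole series FAS had 11.4 to 18.1 CPM in the 6 libraries over 10% mitochondrial and 21.8 to 36.7 CPM in the other 12, 2 ranges that did not overlap, as for 15.8% of all genes. The other 6 members overlapped between these libraries, and the part of the mitochondrial share was not tested.

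MDM2 (ENSSSCG00000000488.4; chromosome 5, 33086994 to 33178089, plus strand) was level between these labels, with 179, 184, 194, 194 and 166 CPM in cell-cell interaction and 186, 171, 178, 169 and 175 CPM in GFP control. Its log2 fold change was 0.09 ± 0.09, the smallest standard error among the 7 genes (edgeR adjusted p = 0.454). BBC3 (ENSSSCG00000003112.4; chromosome 6, 53037103 to 53046887, minus strand) had 24.2, 20.1, 24.4, 23.8 and 17.1 CPM in cell-cell interaction, against 16.6, 14.4, 21.0, 23.7 and 15.2 CPM in GFP control. The labels overlapped (log2 fold change 0.30 ± 0.17; edgeR adjusted p = 0.178). GADD45A (ENSSSCG00000037066.2; chromosome 6, 144940702 to 144944249, minus strand), a stress protein that binds cell cycle and signalling kinases, had means of 35.2 ± 3.99 and 40.2 ± 7.28 CPM (log2 fold change -0.16 ± 0.14; adjusted p = 0.396). SESN1 (ENSSSCG00000004390.4; chromosome 1, 75033098 to 75169987, minus strand), which encodes sestrin 1, an inhibitor of the growth kinase complex mTORC1, had means of 9.59 ± 3.27 and 11.9 ± 2.24 CPM (log2 fold change -0.28 ± 0.23; adjusted p = 0.355).

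Thus 2 of 7 members passed, both lower, beside 39.5% of the 13951 genes tested (18.7% of them lower and 20.8% higher), a share near the background. The 2 were also the members whose labels did not overlap, as in 24.6% of all genes. The median log2 fold change was -0.28 over the members and -0.02 over all genes. Mitochondrial share moved with the label, at 19.6%, 13.8%, 24.3%, 25.4% and 3.32% in cell-cell interaction 1 to 5 against 1.22% to 2.03% in GFP control. Cell-cell interaction 5 alone against the 5 GFP control libraries gave -0.98 ± 0.30 for CDKN1A and -1.15 ± 0.24 for BCL2L1 (edgeR adjusted p = 0.193 and 0.088), where its spread is taken from GFP control and 0.948% of genes passed. Without GFP control 5, the doubted library here, the same 2 members passed, beside 39.1% of genes. The summed markers of 2 cell types also moved with the label without overlap, and their part in the CDKN1A and BCL2L1 values was not tested. Summed kidney epithelial markers were 928 to 1566 CPM in cell-cell interaction and 1672 to 2465 CPM in GFP control, and summed endothelial markers were 5.78 to 11.7 CPM in cell-cell interaction and 3.43 to 5.73 CPM in GFP control. KRT8 and KRT18 had the largest medians in the epithelial sum (1061 and 314 CPM), and the epithelial genes did not all move together. In the authors' deposited GFP control over GFP cells of the interaction, EPCAM (3.43), CDH1 (2.54), CDH16 (3.56) and CLDN8 (4.56) were lower in the interaction. PAX2 was higher in it (-0.56; FDR 0.00257), while KRT8 (0.34) and KRT18 (0.06) did not pass. Summed mesenchymal markers overlapped, at 7718 to 38420 CPM in cell-cell interaction and 10487 to 28445 CPM in GFP control. Summed leukocyte markers (14 of 22 with a row) were 47.0 to 84.7 CPM in cell-cell interaction and 43.7 to 131.9 CPM in GFP control, of which GFP control 1 and 2 held 91.7 and 131.9 CPM. PTPRC, the defining leukocyte antigen, was at 0 counts in 12 of the 18 libraries.

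**Figure D2:**
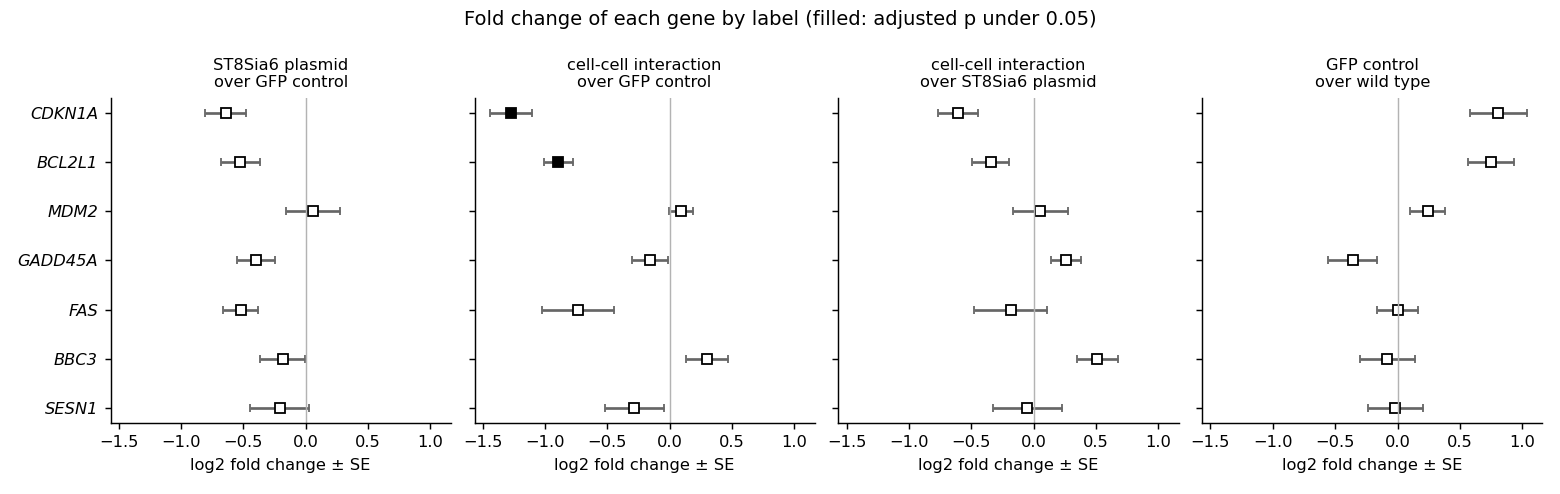
Log2 fold change of the 7 genes (points) with its standard error (bars) in the 4 comparisons by label, from edgeR; filled points have an adjusted p under 0.05. CDKN1A (-1.27) and BCL2L1 (-0.89) in cell-cell interaction over GFP control are the only filled points.

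Between libraries labelled ST8Sia6 plasmid and GFP control no member passed, nor did any of 13840 genes (0%). CDKN1A, BCL2L1, FAS and GADD45A nonetheless had lower means under the ST8Sia6 plasmid label, and 6 of the 7 members had a negative fold change, as did 47.3% of all genes. DESeq2 passed 0.0795% of genes and no member. CDKN1A had 452, 314, 326, 317 and 279.7 CPM in ST8Sia6 plasmid 1 to 5, against the GFP control values of 436 to 674 CPM. ST8Sia6 plasmid 1 lay within GFP control and the other 4 libraries below it (log2 fold change -0.64 ± 0.16, unadjusted p = 0.00243, edgeR adjusted p = 0.502). BCL2L1 had 229, 139, 176, 162 and 137 CPM in ST8Sia6 plasmid against 202 to 283 CPM in GFP control, again with library 1 inside the control range (-0.53 ± 0.16; adjusted p = 0.502). FAS had 26.3, 21.8, 22.8, 18.1 and 17.5 CPM in ST8Sia6 plasmid against 26.5 to 36.7 CPM in GFP control. It was the 1 member whose labels did not overlap, beside 1.03% of all genes so separated (log2 fold change -0.52 ± 0.14; edgeR adjusted p = 0.502).

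GADD45A had 28.7, 25.1, 28.9, 32.5 and 35.1 CPM in ST8Sia6 plasmid, against 46.8, 41.8, 39.4, 44.8 and 28.2 CPM in GFP control. GFP control 5, a doubted library, was the only control inside the ST8Sia6 plasmid range (log2 fold change -0.40 ± 0.15; edgeR adjusted p = 0.502). Without the doubted libraries GADD45A had -0.63 ± 0.13 (unadjusted p = 0.001, adjusted p = 0.441, 3 against 4 libraries), and all 7 members had a negative fold change with a median of -0.43. MDM2 split the ST8Sia6 plasmid label, at 183, 119, 117, 222 and 261 CPM, while GFP control held to 169 to 186 CPM. Its lowest and highest values of the whole series were thus ST8Sia6 plasmid 3 and ST8Sia6 plasmid 5. Its log2 fold change was 0.06 ± 0.22 (edgeR adjusted p = 0.908) and -0.31 ± 0.18 without the doubted libraries (adjusted p = 0.654), and the libraries with 222 and 261 CPM were those over 10% mitochondrial. BBC3 had 12.1 to 19.7 CPM in ST8Sia6 plasmid and 14.4 to 23.7 CPM in GFP control (adjusted p = 0.652). SESN1 had 6.17 to 15.3 against 7.99 to 13.5 CPM (adjusted p = 0.694).

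Set against ST8Sia6 plasmid, cell-cell interaction libraries showed no member past the threshold, beside 0.159% of 13849 genes (non-overlap was seen in 8.65% of them). Here too the interaction label held cells of both plasmids by the weights, so contact and plasmid cannot be told apart. CDKN1A was at 175 to 279.9 CPM in cell-cell interaction and 279.7 to 452 CPM in ST8Sia6 plasmid, ranges that met only at their ends (log2 fold change -0.61 ± 0.16; edgeR adjusted p = 0.0658). BBC3 was at 17.1 to 24.4 CPM in cell-cell interaction and 12.1 to 19.7 CPM in ST8Sia6 plasmid (log2 fold change 0.51 ± 0.16; edgeR adjusted p = 0.0819). Without the doubted ST8Sia6 plasmid 4 and 5 there were 3 passing members, beside 35.5% of all genes. CDKN1A was then lower (-0.73 ± 0.18; edgeR adjusted p = 0.0163), while BBC3 (0.71 ± 0.16; adjusted p = 0.0109) and GADD45A (0.37 ± 0.12; adjusted p = 0.0461) were higher. BCL2L1 stood just outside at -0.47 ± 0.16 (edgeR adjusted p = 0.0504). Leaving out cell-cell interaction 5 instead also gave 3 members, CDKN1A and FAS lower and BBC3 higher, beside 23.7% of genes, and leaving out ST8Sia6 plasmid 5 gave 2, CDKN1A lower and BBC3 higher, beside 20.1%. DESeq2 passed the same 2 (beside 19.5% of genes), 1 fit over all labels passed 1 (beside 8.66%), and libraries under 10% mitochondrial gave 0 (beside 0.0137%).

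GFP control and wild type were compared on 5 and 2 libraries, and no member passed beside 3.16% of 14496 genes. The handling of wild type is not stated and wild type 1 is a doubted library, so this compares labels, not transfection. CDKN1A was at 436 to 674 CPM in GFP control, against 261 and 348 CPM in wild type, without overlap (log2 fold change 0.81 ± 0.23; edgeR adjusted p = 0.109). BCL2L1 was at 202 to 283 CPM in GFP control, against 127 and 165 CPM in wild type (0.75 ± 0.18; edgeR adjusted p = 0.0731). DESeq2 passed both (adjusted p = 0.00797 and 0.00199), beside 9.73% of genes, and 1 fit over all labels passed BCL2L1, beside 3.63%. Without the doubted libraries no member passed, beside 1.87%. GADD45A ran the other way, with 28.2 to 46.8 CPM in GFP control and 47.0 and 56.2 CPM in wild type (-0.36 ± 0.20; edgeR adjusted p = 0.367). MDM2, with 169 to 186 CPM in GFP control and 134 and 163 CPM in wild type, was the fourth member without overlap (0.24 ± 0.14; adjusted p = 0.386). Such non-overlap was seen in 25.6% of all genes. FAS differed by 0.00 ± 0.16 (adjusted p = 0.999), and BBC3 (-0.08 ± 0.22) and SESN1 (-0.02 ± 0.22) were also near 0. The single KEC plus all cells library had 352 CPM of CDKN1A, 168 of BCL2L1, 162 of MDM2, 57.3 of GADD45A, 31.9 of FAS, 17.7 of BBC3 and 10.9 of SESN1. With 1 library it allows no test, and its GADD45A was the highest of the series.

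**Figure D3:**
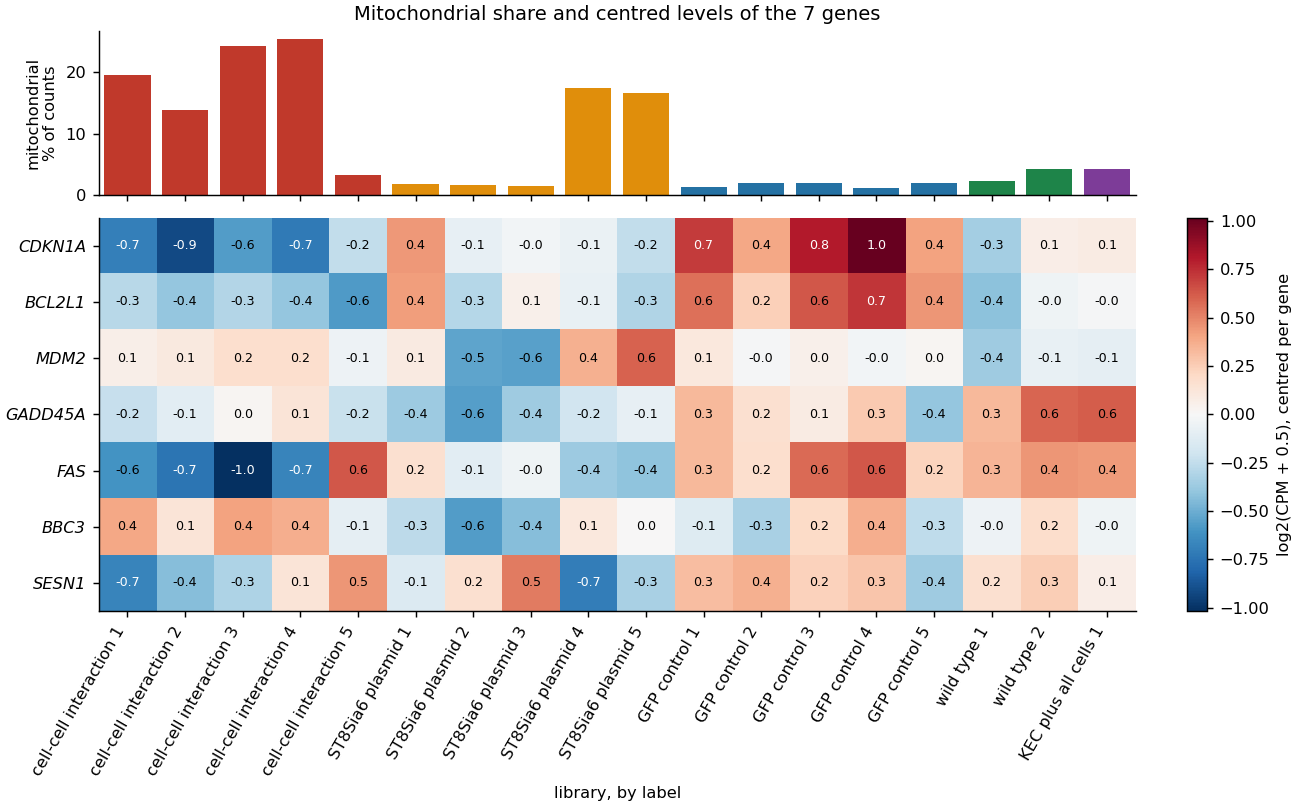
Mitochondrial share of counts per library (bars, %) above the levels of the 7 genes as log2(CPM + 0.5) centred on each gene's mean over the 18 libraries (colour and printed value). CDKN1A, BCL2L1 and FAS are low in cell-cell interaction 1 to 4 and high in GFP control. BCL2L1 is lowest in cell-cell interaction 5 (-0.57), where FAS is high (0.63). FAS is also high in wild type (0.35 and 0.45) and KEC plus all cells (0.44). MDM2 is lowest in ST8Sia6 plasmid 2 and 3 and highest in ST8Sia6 plasmid 4 and 5.

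The authors' own comparisons used groupings that the weights above place differently from the labels, with GFP and ST8Sia6 cells of the interaction kept separate. Their fold changes run from the first-named group over the second, so in the comparisons with the interaction a positive value means lower in the interaction. In the authors' deposited table of GFP control over GFP cells of the interaction, 5 of the 7 members were positive at a false discovery rate (FDR) under 0.05. These were CDKN1A (1.19; FDR 6.68e-07), FAS (0.99; FDR 0.00208), SESN1 (0.87; FDR 0.000395), BCL2L1 (0.82; FDR 3.53e-05) and GADD45A (0.37; FDR 0.0166). MDM2 (-0.27) and BBC3 (-0.12) did not pass in that deposited table. The background was 49.5% of 15240 genes, 25.3% with a positive and 24.3% with a negative value, and the medians were 0.82 over members and 0.02 over all genes. Mitochondrial share moved with this comparison, since its interaction side was weighed on 4 of the 6 libraries over 10% mitochondrial, and its part in the values was not tested.

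For ST8Sia6 cells the authors' deposited table of plasmid over interaction passed 4 members in opposite directions, beside 25.2% of genes, 10.5% with a positive and 14.7% with a negative value. CDKN1A (0.67; FDR 0.0131) and BCL2L1 (0.61; FDR 0.00505) were lower in the interaction, and GADD45A (-0.50; FDR 0.00267) and BBC3 (-0.57; FDR 0.0161) were higher in it. CDKN1A and BCL2L1 were therefore lower in the interaction in both of the authors' contact comparisons, and GADD45A had opposite signs in them, a difference that was not tested. Mitochondrial share also differed in the ST8Sia6 comparison. Its interaction side was weighed on cell-cell interaction 3 and 4 (24.3% and 25.4%), beside cell-cell interaction 5 and wild type 1 (3.32% and 2.29%). Its plasmid side was weighed on GFP control 5 (1.97%) and ST8Sia6 plasmid 1 to 3 (1.42% to 1.89%). The part of this share in the values was not tested. In the authors' deposited table of St8i6a plasmid over GFP control all 7 values were negative, from -0.22 (SESN1) to -0.64 (GADD45A). Only GADD45A passed (FDR 0.00148), beside 1.37% of genes, 0.951% with a negative and 0.42% with a positive value. Within the interaction, GFP cells over ST8Sia6 cells, the authors' deposited table passed SESN1 alone (-0.70; FDR 0.038), beside 4.74% of genes, 0.938% with a positive and 3.81% with a negative value. CDKN1A was at 0.01 and BBC3 at -0.01 there. Each of these comparisons shares a group of libraries with others of the 4, so their values are set side by side only.

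**Figure D4:**
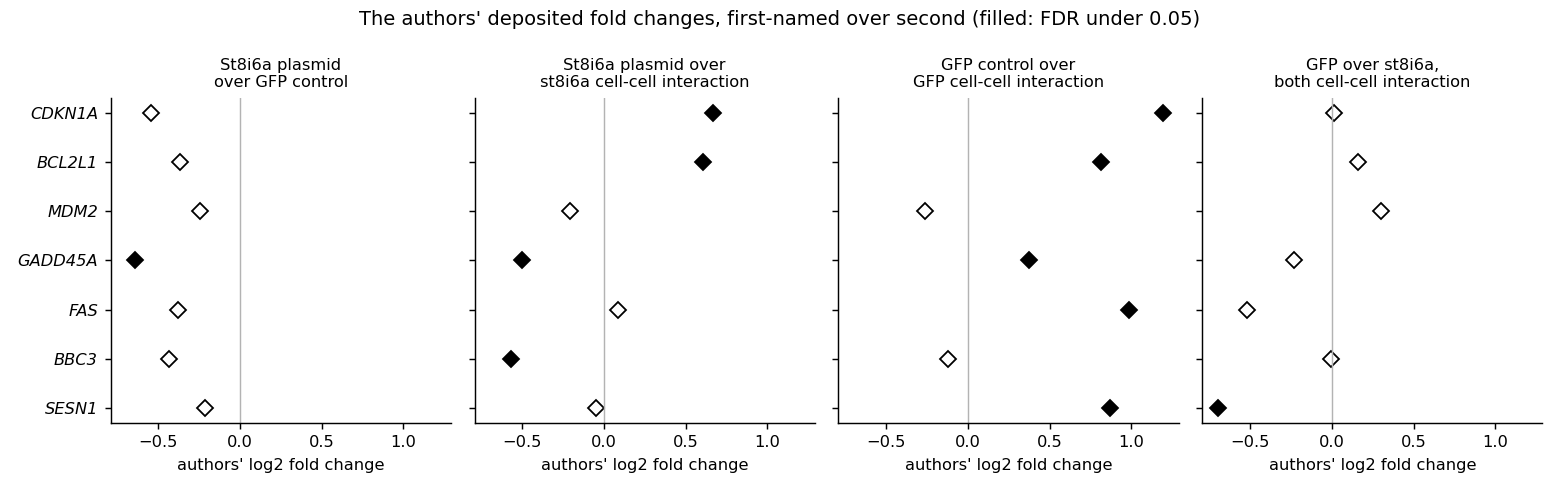
The authors' deposited log2 fold changes of the 7 genes in their 4 comparisons, first-named group over second, with no error given; filled points have an FDR under 0.05. CDKN1A and BCL2L1 are positive, thus lower in the interaction, in both middle panels, while GADD45A is at 0.37 for GFP cells and -0.50 for ST8Sia6 cells.

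Other p53 targets moved both ways in cell-cell interaction against GFP control, as did all genes, of which 39.5% passed, 20.8% higher and 18.7% lower. The counts of the lists below are to be read against those shares. Of 22 tested, 4 were higher, 7 lower and 11 did not pass, with a median log2 fold change of -0.10. TP53I11 (4.06 ± 2.01 against 19.3 ± 7.37 CPM; log2 fold change -2.21 ± 0.37) fell most. RRM2B, a subunit of ribonucleotide reductase, had 13.6 ± 3.52 against 32.9 ± 5.09 CPM (-1.24 ± 0.18), and ZMAT3, an RNA-binding zinc finger protein, had 124 ± 34.6 against 267 ± 47.9 CPM (-1.08 ± 0.19). PLK3, a stress-responsive kinase, rose to 32.5 ± 5.94 CPM, against 14.5 ± 1.88 CPM in GFP control (1.19 ± 0.16). These 4 had edgeR adjusted p-values of 0.0016, 0.000859, 0.00192 and 0.000484 in the order given (SD, n = 5 each).

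Of 19 genes of p53 and its regulators tested, 5 were higher and 0 lower, beside 20.8% and 18.7% of all genes, with a median of 0.27. PPP1R13B, which encodes ASPP1, a p53-binding protein, was at 28.3 ± 4.13 against 14.9 ± 0.695 CPM (log2 fold change 0.96 ± 0.12; edgeR adjusted p = 0.000465), and TP73, a p53 relative, at 12.5 ± 3.97 against 4.50 ± 1.65 CPM (edgeR adjusted p = 0.00424). HIPK2 (0.41 ± 0.11) and KAT5 (0.67 ± 0.18), which modify p53, also passed (edgeR adjusted p = 0.0107 and 0.013). Among other BCL2 family genes 1 of 10 rose and 2 fell, with a median of -0.32. BCL2L2, which encodes the protective BCL-W, rose to 207 ± 19.4 CPM, against 161 ± 17.5 CPM (0.39 ± 0.11; edgeR adjusted p = 0.0196). BCL2L13 (-0.57 ± 0.11) and BNIP3L (-0.67 ± 0.18), both of the mitochondrial outer membrane, fell (adjusted p = 0.00287 and 0.0145).

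Of 23 death receptor and caspase genes tested, 2 were higher and 6 lower, beside 20.8% and 18.7% of all genes, with a median of -0.19. AIFM1, a mitochondrial flavoprotein, had 36.1 ± 3.74 against 67.4 ± 6.11 CPM (log2 fold change -0.87 ± 0.11), TNFRSF1A, a receptor of tumour necrosis factor, 74.8 ± 11.7 against 137 ± 4.84 CPM (-0.84 ± 0.11), and TNFRSF21, a death receptor, 33.7 ± 1.69 against 58.0 ± 5.45 CPM (-0.76 ± 0.10). RIPK1, a kinase downstream of such receptors, rose to 142 ± 30.2 CPM, against 63.5 ± 13.9 CPM (1.19 ± 0.19). Their edgeR adjusted p-values were 0.000322, 0.000517, 0.0004 and 0.00123 in the order given. Of 10 close paralogs of the members, 5 were higher and 1 lower, beside the same shares of all genes, with a median of 0.45. SESN2, MDM4, BCL2L2, BAK1 and BOK also stand in lists above, so this count is not separate from theirs. GADD45G had 20.6 ± 10.3 against 5.09 ± 1.54 CPM (2.05 ± 0.42; adjusted p = 0.00397) and SESN2 71.7 ± 13.5 against 40.9 ± 12.5 CPM (0.84 ± 0.21; adjusted p = 0.0109). CDKN1B, which encodes the p21 relative p27, had 12.9 ± 2.39 against 18.4 ± 2.98 CPM (-0.49 ± 0.16; adjusted p = 0.0341).

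None of these lists had a passing gene between ST8Sia6 plasmid and GFP control, or between cell-cell interaction and ST8Sia6 plasmid. In the first of those comparisons 1367 genes had an unadjusted p under 0.05 and DESeq2 passed 11 of all genes; in the second the figures were 4510 and 2705. Between GFP control and wild type, POLH, a polymerase that copies past DNA lesions, was higher at 35.8 ± 4.82 CPM in GFP control against 18.1 ± 4.17 CPM in wild type (0.99 ± 0.21; edgeR adjusted p = 0.0482). AIFM1 (0.89 ± 0.16; adjusted p = 0.0258) and TNFRSF21 (0.82 ± 0.15; adjusted p = 0.0314) also passed there.

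Across the 18 libraries CDKN1A was most closely followed by TMEM62, ZMAT3 and ANKMY2. Likeness was measured as the mean absolute difference between 2 genes' log2(CPM + 0.5), each centred on its own mean, over 9282 candidate genes. These 3 differed from CDKN1A by 0.10, 0.10 and 0.13 on average, where the median candidate differed by 0.48 and CDKN1A itself deviated from its mean by 0.44. ZMAT3 is itself among the p53 targets listed. It had 107, 106, 115, 106 and 185 CPM in cell-cell interaction, 241, 157, 177, 175 and 149 CPM in ST8Sia6 plasmid, and 270.2, 201, 302, 319.9 and 240.4 CPM in GFP control. It shared with CDKN1A the high GFP control 3 and 4, the high ST8Sia6 plasmid 1 and the low interaction 1 to 4.

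MDM2 was nearest to AEN (0.13), a p53-induced nuclease also on the list, then C6orf136 and SETDB2 (0.14 each), with a median candidate at 0.35. MDM2 deviated from its own mean by only 0.19, so a gene of flat profile would lie almost as near. BCL2L1 was nearest to GOT1 (0.11), CCND3 (0.12) and PIAS1 (0.12). FAS was nearest to RNF103, ATF6 and CYBA (0.11 each). All of these profiles share the same libraries, depth and mitochondrial share. Among the 7 members themselves the nearest pair was CDKN1A and BCL2L1 (0.18), followed by MDM2 and BBC3 (0.23). The farthest pairs were MDM2 with FAS (0.59), FAS with BBC3 (0.58) and CDKN1A with BBC3 (0.58), and CDKN1A lay 0.54 from MDM2 although both are p53 targets.

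**Figure D5:**
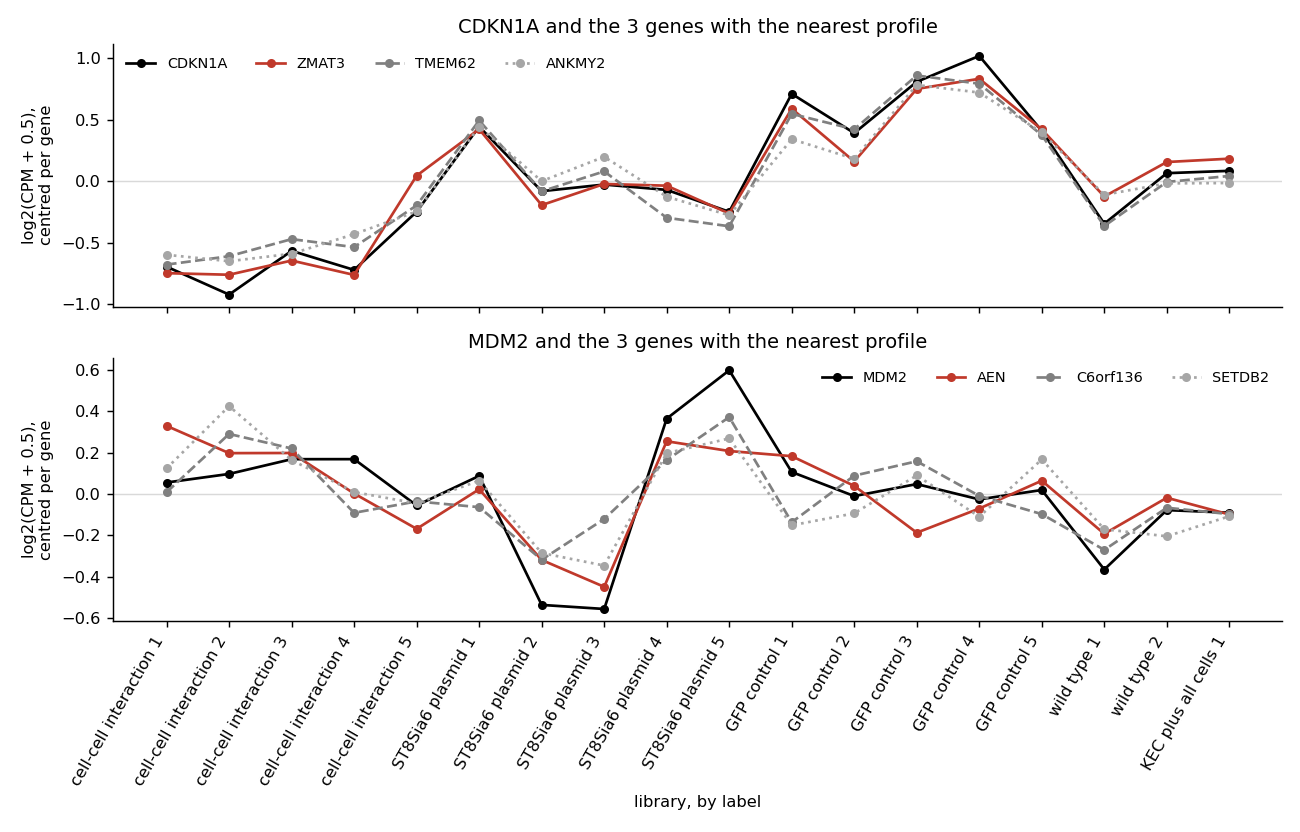
Levels of CDKN1A (top) and MDM2 (bottom) with the 3 genes nearest to each, as log2(CPM + 0.5) centred per gene, over the 18 libraries ordered by label. ZMAT3 and TMEM62 each track CDKN1A to 0.10 on average. AEN and SETDB2 both follow the dip of MDM2 in ST8Sia6 plasmid 2 and 3, and C6orf136 dips mainly in ST8Sia6 plasmid 2.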

How the data were processed

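Total RNA of 18 libraries was sequenced. The submitters' processing notes list STAR 2.7.10a, FastQC 0.11.5, edgeR 3.40.2 and Subread 2.0.3 (featureCounts), and the susScr11 build. Annotation, strand and multi-mapping settings were not stated in those notes, so genes overlapping on opposite strands cannot be told apart. The authors deposited 2 tables with the same raw counts. Their log2 CPM columns, also deposited, were used only to find the libraries behind each of their fold changes, by least squares over 5534 genes. The authors' deposited log2 fold changes, p-values and FDR of 4 comparisons were copied, and a signed fold score deposited beside them was not used. Gene length in bases, the other deposited column, gave RPKM.

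Fits held the libraries of 2 labels. Genes passing filterByExpr were scaled by TMM and tested by edgeR's quasi-likelihood method (R 4.3.3, edgeR 4.0.16, limma 3.58.1), two-sided, with Benjamini-Hochberg adjustment over all tested genes and a threshold of 0.05. SEs derive from its F statistic. Printed CPM use TMM factors of all 18 libraries. The tests were checked on simulated counts. Members and lists were chosen with earlier results of these data known. All members with a row were named. From each list came at most 4 passing genes, those of lowest p with 1 CPM or more, and for CDKN1A, MDM2, BCL2L1 and FAS the 3 nearest profiles of 5 CPM or more. Alternatives were RLE scaling, no filter, a 5 CPM filter, DESeq2 1.42.0, limma-voom, 1 fit for all labels, a minimum absolute log2 fold change of 1, single libraries left out, libraries under 10% mitochondrial, and no doubted libraries.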

Additional observations from a re-analysis of the deposited data

Results flagged for a closer look

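Within labels of 5 libraries, 27 sets of values were examined for a library standing apart from the others, where chance alone picks out about 1 in 20, and 5 stood apart. CDKN1A in ST8Sia6 plasmid 1 was at 452 CPM, far above the other 4 libraries of its label. FAS in cell-cell interaction 5 was at 36.7 CPM, far above the other 4, and that library had the lowest mitochondrial share of its label. SESN1 in GFP control 5, a doubted library, was at 7.99 CPM, far below the other 4. ST8SIA6 in GFP control 2 was at 0.971 CPM, above the others of its label. ST8SIA6 in cell-cell interaction 2 was at 28.2 CPM, the highest of the series.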

How the results depend on the processing

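No paired analysis was possible because the labels carry no replicate numbers. In cell-cell interaction against GFP control, CDKN1A and BCL2L1 kept their negative fold changes under all 19 alternatives; CDKN1A passed in 18 and BCL2L1 in 17. A minimum absolute log2 fold change of 1 left 1 member and 2345 genes, and libraries under 10% mitochondrial left 0 members and 140 genes, with 1 interaction library remaining. In ST8Sia6 plasmid against GFP control DESeq2 passed 11 genes. In cell-cell interaction against ST8Sia6 plasmid, members passing were 2 with DESeq2, 1 over all labels and 3 without the doubted libraries. The genes passing there were 131 at 5 CPM, 2705 with DESeq2, 337 with limma-voom, 1320 over all labels and 5097 without the doubted libraries. Under 10% mitochondrial 1 interaction library remained, so no count is given. In GFP control against wild type DESeq2 passed 2 members and 1410 genes, all labels in 1 fit passed 1 member, and 277 genes passed without the doubted libraries.

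The sign turned for MDM2, SESN1, FAS and BBC3, none of which had passed in the comparison concerned. In ST8Sia6 plasmid against GFP control, MDM2 was -0.0043 with limma-voom, -0.31 under 10% mitochondrial and -0.31 without the doubted libraries, and SESN1 was 0.041 under 10% mitochondrial. Under 10% mitochondrial, cell-cell interaction against GFP control gave MDM2 -0.13, FAS 0.20, BBC3 -0.13 and SESN1 0.23, and against ST8Sia6 plasmid FAS 0.55 and SESN1 0.16. In GFP control against wild type, FAS was -0.00048 with RLE and DESeq2, -0.034 at 5 CPM, -0.0069 with limma-voom and -0.027 without the doubted libraries, where SESN1 was 0.034. The cause was not tested.

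Leaving out each library gave 0 to 1 genes in ST8Sia6 plasmid against GFP control, 0 to 3 members and 0 to 3308 genes in cell-cell interaction against ST8Sia6 plasmid (3 members and 3308 genes without cell-cell interaction 5), and 65 to 407 genes in GFP control against wild type. MDM2 ranged from -0.12 to 0.18 in ST8Sia6 plasmid against GFP control and from -0.070 to 0.22 in cell-cell interaction against ST8Sia6 plasmid, where SESN1 ranged from -0.24 to 0.14. In GFP control against wild type FAS ranged from -0.062 to 0.068, BBC3 from -0.20 to 0.057 and SESN1 from -0.074 to 0.089. Restriction to libraries under 10% mitochondrial drops none in GFP control against wild type and was not run there.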
